A study of Mus musculus with 18 samples.

Results

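The acute-phase genes of the heart were followed as a set of 10 named genes: Lcn2, Saa1, Saa2, Saa3, Ptx3, Hp, Orm1, Serpina3n, Serpina3m and Serpina3g. They were taken by symbol from the 24421 genes counted in each library, and all 10 symbols were present. The set was named with the levels of these genes in these libraries in view, so their levels and fold changes are a description. Where the fit over all genes called a member, the call is given beside the share of all genes called and supports nothing.

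The libraries came from left ventricles of C57BL/6 mice, 3 in each of 6 groups. Sesn2-KO mice (Sesn2-/-) were 3 to 4 months old and were bred in the submitters' own colony. Sesn2 encodes sestrin 2, a stress-inducible protein that acts on AMPK and mTORC1. Aged WT mice were 24 to 26 months old, from Charles River, and young WT mice were 3 to 4 months old, from The Jackson Laboratory. Colony and supplier therefore cannot be told apart from genotype and age. After IR (ischaemia and reperfusion) the left anterior descending coronary artery had been closed for 45 min, with 24 h of reperfusion. Sham surgery opened the chest without closing the artery. The groups were Sesn2-KO IR, Sesn2-KO sham, aged WT IR, aged WT sham, young WT IR and young WT sham. Levels are counts per 1000000 gene counts (CPM), and libraries carry their group's name and their number in it.

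The acute-phase response is a change in secreted plasma proteins after injury or infection, best known from the liver. Interleukin 6, interleukin 1 and related cytokines drive it through STAT3, C/EBP and NF-kB transcription factors. Several of its genes are also transcribed outside the liver, in fibroblasts, macrophages, endothelial cells and cardiomyocytes. The set holds carriers that bind iron-loaded siderophores or haemoglobin, lipid-binding serum amyloid A proteins, a pattern-recognition pentraxin, and serine protease inhibitors of the Serpina3 cluster.

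Promoter sequence is shown for Lcn2 and Serpina3n, which had the highest levels, for Saa3 and its relative Saa1, which had at most 9 counts in any group, and for Serpina3g, whose pattern differed most. RefSeq promoters of build GRCm38.p6 were matched for 7 members: Lcn2, Saa1, Saa2, Saa3, Ptx3, Serpina3n and Serpina3g. Each runs from 250 bases before to 50 bases after the gene's start, and is printed 5′ to 3′ on the gene's strand. Capitals mark matches to the motifs GGGANNNNCC for NF-kB, TTGCNNAA for C/EBP and TTCNNNGAA for STAT, searched on both strands. The 5 sequences lie at chr2:32387690-32387989 (Lcn2, minus strand), chr7:46715627-46715926 (Saa3, minus strand), chr7:46742931-46743230 (Saa1, minus strand), chr12:104406458-104406757 (Serpina3n, plus strand) and chr12:104235897-104236196 (Serpina3g, plus strand).
Lcn2: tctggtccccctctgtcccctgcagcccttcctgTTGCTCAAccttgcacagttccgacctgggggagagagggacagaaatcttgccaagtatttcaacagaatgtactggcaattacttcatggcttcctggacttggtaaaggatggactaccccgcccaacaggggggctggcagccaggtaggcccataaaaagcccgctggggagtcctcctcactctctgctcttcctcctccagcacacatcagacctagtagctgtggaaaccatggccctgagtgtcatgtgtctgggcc
Saa3: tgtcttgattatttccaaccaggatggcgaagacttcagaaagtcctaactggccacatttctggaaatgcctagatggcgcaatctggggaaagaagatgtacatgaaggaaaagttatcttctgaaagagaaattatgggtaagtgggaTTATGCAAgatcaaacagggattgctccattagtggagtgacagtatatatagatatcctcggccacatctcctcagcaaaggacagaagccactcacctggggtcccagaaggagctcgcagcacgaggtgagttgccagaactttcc
Saa1: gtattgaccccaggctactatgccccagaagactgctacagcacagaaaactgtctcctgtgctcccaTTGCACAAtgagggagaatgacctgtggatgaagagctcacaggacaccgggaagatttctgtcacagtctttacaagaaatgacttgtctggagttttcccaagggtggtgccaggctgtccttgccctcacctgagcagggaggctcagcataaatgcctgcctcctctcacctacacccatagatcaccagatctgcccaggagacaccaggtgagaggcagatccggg
Serpina3n: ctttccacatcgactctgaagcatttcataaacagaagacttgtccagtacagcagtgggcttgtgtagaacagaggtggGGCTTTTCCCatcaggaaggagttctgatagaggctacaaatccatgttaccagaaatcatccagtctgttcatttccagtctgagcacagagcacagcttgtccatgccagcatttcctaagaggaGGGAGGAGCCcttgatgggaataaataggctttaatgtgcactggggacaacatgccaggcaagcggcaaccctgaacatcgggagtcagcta
Serpina3g: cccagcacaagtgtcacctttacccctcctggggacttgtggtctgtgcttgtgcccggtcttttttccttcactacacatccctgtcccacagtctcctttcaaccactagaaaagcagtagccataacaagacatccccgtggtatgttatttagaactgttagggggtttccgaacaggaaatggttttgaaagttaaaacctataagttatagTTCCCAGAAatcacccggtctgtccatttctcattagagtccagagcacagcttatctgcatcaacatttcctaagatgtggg

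A C/EBP match stood in 5 of the 7 windows: TTGCTCAA at position -216 in Lcn2, TTGCACAA at -182 in Saa1 and -183 in Saa2, TTATGCAA at -99 in Saa3 and TTGTGCAA at -57 in Ptx3. Over 32851 mouse promoter windows of the same length, 10.8% held a C/EBP match. NF-kB matches were found in Ptx3, as GGGAACTCCC at position 1, and in Serpina3n, as GGCTTTTCCC at -170 and GGGAGGAGCC at -43, and 20.7% of all windows held one. The STAT letters were found in Serpina3g, as TTCCCAGAA at -33, and 8.3% of all windows held them. A match is a description of these letters and not a binding site. The Saa1 and Saa2 windows were 96% identical, 287 of 299 aligned bases, and the Serpina3g and Serpina3n windows 82.1% identical over 201 aligned bases.

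Gene counts per library ran from 9404531 to 14458047, and 13859 genes passed the filter on low counts and were tested. Of the 10 members, 7 passed it, and Saa1, Saa2 and Orm1 did not. Sesn2 itself had 0.074 to 0.334 CPM in Sesn2-KO IR hearts and 0 to 0.362 CPM in Sesn2-KO sham hearts, against 3.12 to 4.47 CPM in aged WT IR, 3.37 to 4.23 CPM in aged WT sham, 2.5 to 4.33 CPM in young WT IR and 2.75 to 6.03 CPM in young WT sham hearts. In Sesn2-KO sham against young WT sham hearts its log2 fold change was -4.42 ± 0.56 (SE, adjusted p = 0.000371, edgeR quasi-likelihood test, Benjamini-Hochberg over all genes tested). Of the 10 lists of cell type markers, the cardiomyocyte list had the highest sum in every library: its 8 genes summed to 30251 to 47207 CPM. In each group the library that leaned most towards long genes was marked, so 1 per group was fixed in advance. These were young WT sham 1, aged WT sham 1, and replicate 3 of the other groups. Their Spearman correlations of deviation from the group mean with transcript length were 0.314 to 0.48. Those of the other libraries ran from -0.0148 down to -0.429, in young WT sham 2. Nothing in the labels says that libraries of a group came from separate litters or surgery days, so the spread between them may be partly technical.

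Lcn2 encodes lipocalin 2, which withholds iron from bacteria by binding their siderophores. It had 589, 306 and 319 CPM in Sesn2-KO IR hearts and 150, 617 and 340 CPM in Sesn2-KO sham hearts. In WT hearts it had 267, 511 and 211 CPM in aged IR, 2.56, 7.41 and 2.24 CPM in aged sham, 431, 103 and 179 CPM in young IR and 3.16, 2.75 and 4.95 CPM in young sham hearts. The 4 groups from 103 CPM upwards overlapped one another, and the 2 WT sham groups lay below 8 CPM and also overlapped each other. In Sesn2-KO sham against young WT sham hearts the log2 fold change was 6.67 ± 0.75 (SE), a 102-fold ratio of mean CPM that was 67.7-fold without Sesn2-KO sham 2. The same quantity was 6.34 ± 0.73 for IR against sham in aged WT and 6.04 ± 0.73 in young WT hearts.

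Serpina3n encodes a secreted inhibitor of serine proteases such as granzyme B and neutrophil elastase. It had 461, 422 and 578 CPM in Sesn2-KO IR, 368, 548 and 705 CPM in Sesn2-KO sham and 358, 523 and 290 CPM in aged WT IR hearts. It had 27.4, 45.7 and 22.8 CPM in aged WT sham, 311, 153 and 216 CPM in young WT IR and 13.5, 12.6 and 14.8 CPM in young WT sham hearts. Every Sesn2-KO sham library lay above every young WT IR library, and every aged WT sham library above every young WT sham library. Per kilobase of exon, Serpina3n stood at 262 ± 81.7 CPM and Lcn2 at 141 ± 89.6 CPM in Sesn2-KO sham hearts (SD, n = 3), and Serpina3n was above Lcn2 in each of the 3 libraries, at 178 against 57.2, 266 against 235 and 342 against 130 CPM per kilobase. In young WT sham hearts they stood at 6.61 ± 0.557 and 1.38 ± 0.447 CPM per kilobase (SD, n = 3), with Serpina3n above Lcn2. These lengths count all annotated exon bases, 2623 for Lcn2 and 2064 for Serpina3n. The longest Lcn2 transcript has 1374 bases and that of Serpina3n 2064. The order in Sesn2-KO sham 2 and the order of the Sesn2-KO sham means therefore depend on the length used.

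Saa3 encodes the serum amyloid A form that macrophages, fibroblasts and adipocytes make in the mouse. It had 8.32, 9.77 and 6.59 CPM in Sesn2-KO IR, 9.01, 11.3 and 5.64 CPM in Sesn2-KO sham and 14.5, 15.7 and 6.81 CPM in aged WT IR hearts. It had 0.346, 0.371 and 0.0935 CPM in aged WT sham, 13.8, 4.1 and 4.86 CPM in young WT IR and 0.0701, 0.235 and 0.162 CPM in young WT sham hearts. As for Lcn2, the WT sham libraries lay far below the other 4 groups, which overlapped. The pooled count in young WT sham hearts was 6, so a fold change against that group rests on few counts.

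Saa1 and Saa2 encode the serum amyloid A proteins that the liver releases, and Orm1 encodes orosomucoid 1, an alpha-1-acid glycoprotein of plasma. All 3 were near the limit of these libraries. Saa1 had 4 counts over the Sesn2-KO IR libraries, 9 over Sesn2-KO sham, 9 over aged WT IR, 1 over aged WT sham, 4 over young WT IR and 1 over young WT sham. The Sesn2-KO sham to young WT sham ratio of Saa1 was 8.65 (95% interval from counting alone, 1.2 to 379). Saa2 had at most 3 counts and Orm1 at most 2 counts in any group. For the aged WT IR group, with 0 counts of each, 3 counts allow up to 0.0882 CPM. Saa1 and Saa2 share 9.8% of their 100-base stretches with each other, so reads from those stretches could not be assigned to 1 of them by sequence alone.

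Ptx3 encodes long pentraxin 3, which binds microbes, complement and extracellular matrix. It had 18.3, 12.4 and 20.1 CPM in Sesn2-KO IR, 3.96, 9.15 and 10.6 CPM in Sesn2-KO sham and 22.2, 15.8 and 12.4 CPM in aged WT IR hearts. It had 0.484, 0.593 and 0.561 CPM in aged WT sham, 8.41, 15.5 and 17.1 CPM in young WT IR and 0.561, 0.785 and 0.568 CPM in young WT sham hearts. Ptx3 was the member for which Sesn2-KO IR hearts lay wholly above Sesn2-KO sham hearts, with a 2.14-fold ratio of means and a log2 fold change of 1.04 ± 0.32 (SE), although it was not called. Hp, with a ratio of means of 0.888, and Saa1, with 4 against 9 counts, lay wholly below in the same comparison. The share of all genes without overlap there is not given, so nothing is read from these orders. Sesn2-KO sham hearts lay wholly below aged WT IR hearts and overlapped young WT IR hearts.

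Hp encodes haptoglobin, which binds free haemoglobin. It had 18.1, 19.7 and 19 CPM in Sesn2-KO IR, 20.1, 22.1 and 21.8 CPM in Sesn2-KO sham and 22.4, 17.4 and 15.4 CPM in aged WT IR hearts. It had 1.87, 9.19 and 2.71 CPM in aged WT sham, 5.25, 5.87 and 6.58 CPM in young WT IR and 0.561, 1.02 and 1.46 CPM in young WT sham hearts. In all 3 Sesn2-KO sham libraries Hp was above all 3 young WT IR libraries, a log2 fold change of 1.88 ± 0.38 (SE) and a 3.61-fold ratio of means. Aged WT sham hearts averaged 4.53 times the young WT sham level without overlap, with 1 library, aged WT sham 2, well above the other aged sham libraries. Without that library the ratio was 2.26. Leaving out 1 library at a time, the Sesn2-KO sham against young WT IR fold change of Hp stayed between 1.82 and 1.95 on the log2 scale.

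Serpina3m and Serpina3g are neighbours of Serpina3n on chromosome 12, and Serpina3g is known in mouse as an interferon-inducible inhibitor of cathepsins. Serpina3m had 7.61, 4.34 and 8.89 CPM in Sesn2-KO IR, 4.4, 7.74 and 11.1 CPM in Sesn2-KO sham and 4.26, 8.29 and 2.36 CPM in aged WT IR hearts. It had 0.277, 0.222 and 0.28 CPM in aged WT sham, 3.66, 0.464 and 1.14 CPM in young WT IR and 0.14, 0 and 0 CPM in young WT sham hearts. Its order of groups thus followed that of Serpina3n, at a far lower level. With 2 counts in young WT sham hearts, the Sesn2-KO sham to young WT sham ratio of Serpina3m was 152 (95% interval from counting alone, 41.8 to 1264).

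Serpina3g differed from the other members. It had 7.0, 5.59 and 5.33 CPM in Sesn2-KO IR, 5.06, 5.95 and 7.6 CPM in Sesn2-KO sham, 7.31, 4.04 and 4.97 CPM in aged WT IR, 2.28, 5.71 and 1.96 CPM in aged WT sham and 2.08, 1.16 and 1.34 CPM in young WT IR hearts. Young WT sham hearts had 0.982, 1.49 and 9.41 CPM, so young WT sham 3 held the highest value of all 18 libraries. The log2 fold change in Sesn2-KO sham against young WT sham hearts was 0.65 ± 0.59 (SE) with that library and 2.34 without it. For IR against sham in young WT hearts it was -1.38 ± 0.67 (SE) with it and 0.31 without it. Of the 100-base stretches of the Serpina3g transcript, 4.64% also occur in other genes of the cluster, as do 6.09% for Serpina3m and 0.204% for Serpina3n.

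**Figure D1:**
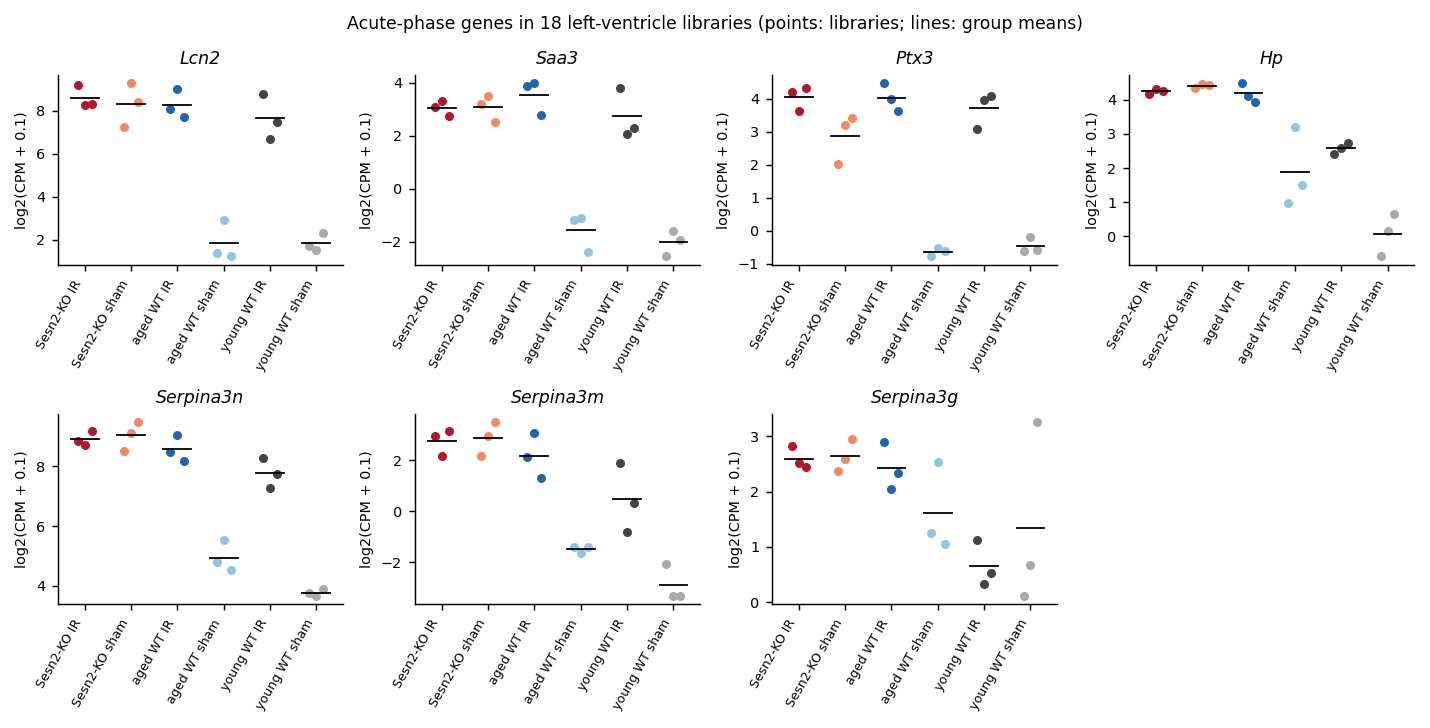
Level of the 7 members that passed the filter, as log2(CPM + 0.1), in the 3 libraries of each group (points) with the group mean (line). Except for Serpina3g, Sesn2-KO sham libraries sit above both WT sham groups, for Hp and the 3 Serpina3 genes they sit wholly above young WT IR, and for Ptx3 wholly below aged WT IR. The shares of all genes without overlap in these comparisons are not given, so these orders are a description.

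Of the 7 members tested, 6 were called higher (adjusted p below 0.05) in Sesn2-KO sham against young WT sham hearts: Hp, Lcn2, Ptx3, Saa3, Serpina3m and Serpina3n. Over all genes tested, 3.32% were called higher in that comparison. The same 6 were called higher against aged WT sham hearts, where 1.54% of all genes were, for IR against sham in aged WT hearts, where 5.36% were, and in young WT hearts, where 4.17% were. The members were named with these comparisons in view, so nothing is read from their counts. Serpina3m lost its call for IR in young WT hearts without young WT IR 1, where its log2 fold change was 3.66, and without any 1 of the young WT sham libraries, where it was 4.38 to 7.45. Serpina3g was called in Sesn2-KO sham against young WT sham hearts without young WT sham 3. In Sesn2-KO hearts no member was called for IR against sham, and neither was any of the 13859 genes (0%), although 2037 genes had an unadjusted p below 0.05 in edgeR and DESeq2 called 131. The log2 fold changes of the 7 members there lay between -0.23 for Hp and 1.04 for Ptx3.

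How far sham Sesn2-KO hearts reached towards injured WT hearts was expressed as a share of the log2 distance from young WT sham to WT IR hearts, with 0.1 CPM added. Serpina3n reached 110 ± 9.87% of the distance to aged WT IR and 132 ± 11.8% of that to young WT IR (SD over the 3 Sesn2-KO sham libraries). Lcn2 reached 101 ± 16% and 111 ± 17.7%, and Saa3 91.5 ± 9.07% and 107 ± 10.6%, in the same order. Serpina3n thus lay wholly above young WT IR hearts, and Lcn2 and Saa3 overlapped both injured WT groups. Hp reached 106 ± 1.81% of the distance to aged WT IR and 173 ± 2.97% of that to young WT IR, where the log2 distance was 4.12 to aged WT IR and 2.51 to young WT IR. These SDs leave out the spread of the WT groups. With 1 library left out, the Hp shares ran from 103% to 110% and from 166% to 185%, in the same order. Ptx3 fell short of both injured WT groups, at 74.2 ± 16.8% and 80 ± 18.1%. Serpina3g reached 119 ± 26.9% of the distance to aged WT IR hearts, and its young WT IR level lay below young WT sham. Young WT sham 3, at 9.41 CPM, weighed on both, and without it the second no longer held. The aged WT IR libraries, at 4.04 to 7.31 CPM, lay within the young WT sham range of 0.982 to 9.41 CPM. With 1 library left out the Serpina3g share ran from 102% to 152%. Serpina3m, Saa1, Saa2 and Orm1 had too few counts in young WT sham hearts for such a share.

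**Figure D2:**
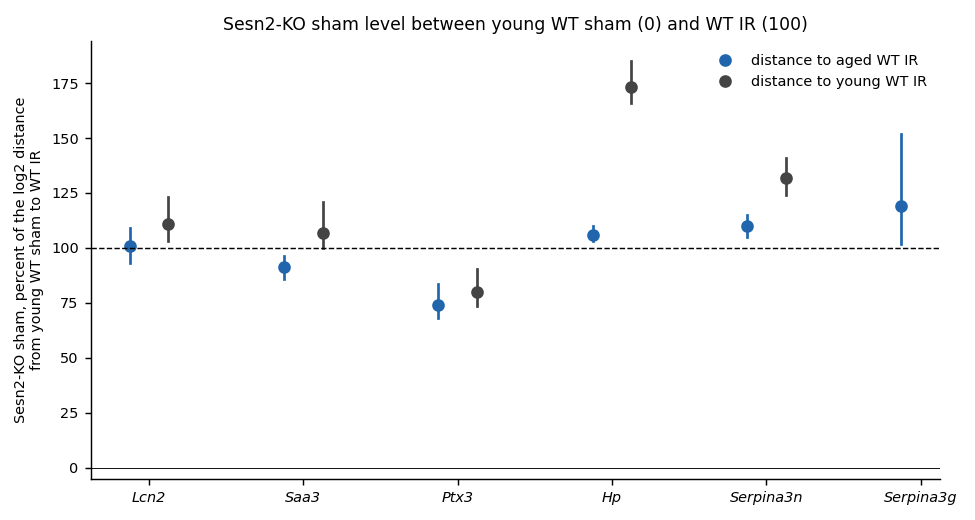
Position of Sesn2-KO sham hearts between young WT sham (0) and WT IR hearts (100), in percent of the log2(CPM + 0.1) distance, for the distance to aged WT IR and to young WT IR. Points use all libraries and bars span the values with 1 library left out. Ptx3 lies below 100 for both and Hp farthest above it for young WT IR.

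Set directly against injured WT hearts, 1 member of 7, Hp, was called in Sesn2-KO sham against young WT IR hearts, where 0.548% of all genes were called higher. That call was lost without any 1 of the Sesn2-KO sham libraries and without young WT IR 2 or 3. Without young WT IR 1, Hp, Serpina3m and Serpina3n were called. The log2 fold changes against young WT IR were 2.14 ± 0.59 for Serpina3m, 2.03 ± 0.66 for Serpina3g, 1.27 ± 0.31 for Serpina3n, 0.64 ± 0.56 for Lcn2, 0.19 ± 0.42 for Saa3 and -0.76 ± 0.32 for Ptx3 (SE). As for Hp, the Sesn2-KO sham libraries lay wholly above young WT IR for the 3 Serpina3 genes. The share of all genes lying wholly above in this comparison is not given, so nothing is read from this. The ratio of means of Lcn2 was 1.55, against 1.03 without Sesn2-KO sham 2 and 2.62 without young WT IR 1. Against aged WT IR hearts no member was called, and 0.0794% of all genes were, in either direction. There the values were 0.63 ± 0.55 for Serpina3m, 0.17 ± 0.59 for Serpina3g, 0.45 ± 0.31 for Serpina3n, 0.13 ± 0.56 for Lcn2, 0.19 ± 0.35 for Hp, -0.54 ± 0.42 for Saa3 and -1.10 ± 0.32 for Ptx3. After IR, Sesn2-KO against young WT hearts gave 1.93 ± 0.60 for Serpina3m, 1.92 ± 0.66 for Serpina3g, 1.65 ± 0.38 for Hp, 1.06 ± 0.31 for Serpina3n, 0.72 ± 0.56 for Lcn2, 0.28 ± 0.31 for Ptx3 and 0.06 ± 0.42 for Saa3, and no member was called beside 0.433% of all genes. A difference that misses the threshold does not show equal levels.

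The response to IR in Sesn2-KO hearts minus that in young WT hearts was -5.95 ± 0.89 for Lcn2, -5.67 ± 0.83 for Saa3, -4.26 ± 0.46 for Serpina3n and -3.33 ± 0.54 for Ptx3 on the log2 scale (SE). These 4 of the 7 members tested were called, against 0.0577% of all genes (8 of 13859), all lower. The difference uses the sham levels given above. The Sesn2-KO response was 0.08 ± 0.56 for Lcn2 and -0.21 ± 0.31 for Serpina3n. Without young WT sham 1, 2 or 3, Serpina3n alone kept its call, and without Sesn2-KO IR 2, Saa3 and Serpina3n did. Lcn2 also lost its call without Sesn2-KO IR 3, and Ptx3 without Sesn2-KO IR 1, Sesn2-KO sham 2 or 3 or young WT IR 2 or 3. With 1 library left out, the difference ranged from -6.35 to -5.16 for Lcn2, from -6.07 to -4.86 for Saa3, from -4.49 to -3.93 for Serpina3n and from -3.66 to -3.05 for Ptx3. The response in aged WT minus that in young WT hearts lay between -0.64 for Serpina3m and 2.10 for Serpina3g, and no member was called. No gene was called in that comparison (0%), with 152 genes at an unadjusted p below 0.05 in edgeR and 0 called by DESeq2.

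Between sham WT hearts, aged against young, Hp gave 2.20 ± 0.48, Serpina3n 1.24 ± 0.33, Lcn2 0.20 ± 0.73 and Ptx3 -0.22 ± 0.59 on the log2 scale (SE). No member was called, beside 0.152% of all genes. Hp, Serpina3n and Serpina3m lay above young WT sham hearts without overlap, as did 5.71% of all genes, while Lcn2, Saa3, Ptx3 and Serpina3g overlapped. Without aged WT sham 1, Hp was called.

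The genes around the set were described through 4 lists, chosen with earlier results of these data known. Adjusted p-values below are edgeR's, over all 13859 genes. In Sesn2-KO sham against young WT sham hearts 3.32% of all genes were called higher and 1.79% lower. For IR the shares, in the same order, were 5.36% and 2.24% in aged WT and 4.17% and 1.9% in young WT hearts. The median log2 fold changes of all genes in these comparisons were 0.02, 0.00 and 0.01, in that order. Other acute-phase genes had 20 of 32 members tested, and 8 were higher in Sesn2-KO sham than in young WT sham hearts and none lower. Their median log2 fold change was 1.2, beside 0.02 for all genes. Mt2, a metallothionein that binds zinc and copper, averaged 158 ± 48.2 CPM in Sesn2-KO sham and 24.9 ± 4.19 CPM in young WT sham hearts (SD, n = 3; log2 fold change 2.66, adjusted p = 0.000111, edgeR). Its relative Mt1 rose by 1.25 (adjusted p = 0.00723), Serpina3i of the same serpin cluster by 3.10 (0.000554) and Il1rn, the interleukin 1 receptor antagonist, by 3.81 (0.0026). The median was 0.64 for IR against sham in aged WT and 0.66 in young WT hearts, with 5 higher and none lower in each. Mt2, Mt1, Serpina3i and Il1rn were among the 5 both times. The fifth in young WT hearts was Itih4, an inter-alpha-trypsin inhibitor chain (1.96, adjusted p = 0.0188), which was named after its values were seen. Itih4 lost its call without young WT IR 1 (0.0595) or young WT sham 2 (0.0712) or 3 (0.0557).

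The other 4 genes called in Sesn2-KO sham against young WT sham hearts were Itih4 (2.00, adjusted p = 0.0185) and the complement genes C4b (1.82, 0.0197), Cfb (1.87, 0.0347) and C3 (1.19, 0.0365), which were named after their values were seen. Against aged WT sham hearts none of these 4 was called, while Mt2, Mt1, Serpina3i and Il1rn were. The log2 fold changes there were 0.92 for Itih4 (adjusted p = 0.275, edgeR), 0.54 for C4b (0.547), 0.40 for Cfb (0.719) and 0.29 for C3 (0.695). C4b averaged 135 ± 49.2 CPM in Sesn2-KO sham hearts, and in WT hearts 90.0 ± 27.8 in aged IR, 91.8 ± 61.7 in aged sham, 39.1 ± 12.3 in young IR and 38.2 ± 13.2 CPM in young sham hearts (SD, n = 3). For IR against sham, C4b gave -0.02 in aged WT (adjusted p = 0.986) and 0.02 in young WT hearts (0.986), and C3 gave 0.01 (0.993) and -0.14 (0.852). Set directly against young WT IR hearts, Sesn2-KO sham hearts gave 1.79 for C4b and 1.32 for C3, both at an adjusted p of 0.0656. The list count fell to 4 without Sesn2-KO sham 1 and to 5 without young WT sham 1 or 2. With 1 library left out, the adjusted p reached 0.149 for C3 and 0.0929 for C4b without young WT sham 1, 0.174 for Cfb without Sesn2-KO sham 1 and 0.0739 for Itih4 without young WT sham 2. Mt2, Mt1, Serpina3i and Il1rn kept their calls each time.

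Of the cytokines and receptors that induce the response, 20 of 24 were tested, and 6 were higher in Sesn2-KO sham than in young WT sham hearts and none lower, with a list median of 0.49. Il6, the cytokine best known for driving the response, had 73 counts over the Sesn2-KO sham libraries and 2 over the young WT sham libraries. The CPM ratio was 35.1 (95% interval from counting alone, 9.37 to 295), at an adjusted p of 0.00362 in edgeR. The receptor genes Il1r1, Tnfrsf1a and Osmr, which serve interleukin 1, tumour necrosis factor and oncostatin M, rose by 0.87 (adjusted p = 0.00312), 0.57 (0.00586) and 1.07 (0.00723) on the log2 scale. Il1b gave 2.98 (0.0149) and Il17ra 1.24 (0.014), and without young WT sham 1 their adjusted p was 0.0728 and 0.066. Il1b also lost its call without young WT sham 3 (0.0567), and Il17ra without Sesn2-KO sham 3 (0.0532). For IR against sham the same list had 6 higher and 1 lower in aged WT hearts, with a median of 0.75, and 6 higher in young WT hearts, with a median of 0.74. Il6 had 77 counts over aged WT IR and 3 over aged WT sham hearts, and 70 over young WT IR and 2 over young WT sham hearts. The lower gene was Il22ra1, an interleukin 22 receptor chain, at -1.74 (adjusted p = 0.0326), which lost its call without any 1 of the aged libraries (0.062 to 0.102) and was named after its value was seen.

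Among signalling and transcription factor genes, 22 of 24 were tested, and 6 were higher in Sesn2-KO sham than in young WT sham hearts and none lower, with a list median of 0.34. Cebpd, a C/EBP factor, averaged 59.0 ± 8.31 CPM in Sesn2-KO sham and 18.7 ± 4.08 CPM in young WT sham hearts (SD, n = 3; log2 fold change 1.66, adjusted p = 0.000188, edgeR). Socs3, the STAT3-induced feedback inhibitor of interleukin 6 signalling, rose by 2.04 (adjusted p = 0.00192) and Junb, an AP-1 subunit, by 1.45 (0.00212). Fkbp5, a glucocorticoid-induced chaperone, gave 1.71 (0.014) and lost the call without Sesn2-KO sham 3 (0.0598), young WT sham 2 (0.053) or young WT sham 3 (0.0666). Without Sesn2-KO sham 3 the list count was 3. IR against sham gave 4 higher genes in aged WT hearts, with a median of 0.25, and 5 higher and 1 lower in young WT hearts, with a median of 0.32. Cebpd, Socs3, Junb and Bcl3 were called in both. The lower gene was Nr3c1, the glucocorticoid receptor, at -0.43 (adjusted p = 0.0101), which lost its call without young WT sham 1 (0.0525).

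Of receptors, ligands and targets of the members, 20 of 24 were tested, and 4 were higher and 1 lower in Sesn2-KO sham than in young WT sham hearts, with a list median of 0.55. Hmox1, the haem oxygenase that breaks down haem taken up with haptoglobin, averaged 70.8 ± 19.6 CPM in Sesn2-KO sham and 15.6 ± 0.297 CPM in young WT sham hearts (SD, n = 3; log2 fold change 2.18, adjusted p = 3.91e-05, edgeR). Tnfaip6, whose product TSG-6 binds pentraxin 3 in hyaluronan matrix, rose by 1.41 (adjusted p = 0.0048). Mmp9, the gelatinase that lipocalin 2 binds, gave 1.81 (0.0169), and Scarb1, a receptor for high-density lipoprotein and serum amyloid A, gave -0.52 (0.0136). Scarb1 lost its call without Sesn2-KO sham 1 (0.0514), and Mmp9 without that library (0.0638) or any 1 of the young WT sham libraries (0.0543 to 0.0672). The fifth gene was Selp, P-selectin, at 1.93 (0.036), which lost its call without any 1 of the 6 libraries compared (0.0608 to 0.135). The list count fell to 2 without Sesn2-KO sham 1 and to 3 without any 1 of the young WT sham libraries. IR against sham gave 6 higher in aged WT hearts, with a median of 0.33, and 4 higher in young WT hearts, with a median of 0.34. Hmox1, Mmp9, Tnfaip6 and Selp were called in both, and Fpr1 and Fpr2, formyl peptide receptors of myeloid cells, in aged WT hearts. Fpr2 lost that call without aged WT IR 1 (0.0978) or 3 (0.0541) or aged WT sham 1 (0.0801) or 3 (0.0779).

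In Sesn2-KO sham against young WT IR, Sesn2-KO sham against aged WT IR, Sesn2-KO IR against young WT IR and aged WT sham against young WT sham, no gene of the 4 lists was called by edgeR. Of the 82 listed genes tested, 11, 7, 19 and 8 had an unadjusted p below 0.05 in those comparisons, in that order. DESeq2 called 4 genes in the first, among them C4b, C3 and Scarb1. It called Mmp9 in the second, C4b and Cfb in the third and 0 genes in the last. For IR against sham in Sesn2-KO hearts edgeR called none of them either, 23 had an unadjusted p below 0.05, and DESeq2 called Il1rn, Mmp9 and Selp. Genes called by DESeq2 alone were named after their values were seen. Hmox1 was the list gene called in the difference of IR responses, Sesn2-KO minus young WT, at -1.78 ± 0.29 (SE, adjusted p = 0.0287, edgeR). The call was lost without any 1 of the Sesn2-KO IR or young WT sham libraries and without Sesn2-KO sham 2 or 3 or young WT IR 2 or 3 (adjusted p 0.0785 to 0.146), and also with the compared groups alone (0.075) and with the replicate number as a block (0.0532). Without the 6 libraries with relatively more counts from long genes, each of the 4 lists had 2 called genes in Sesn2-KO sham against young WT sham hearts.

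**Figure D3:**
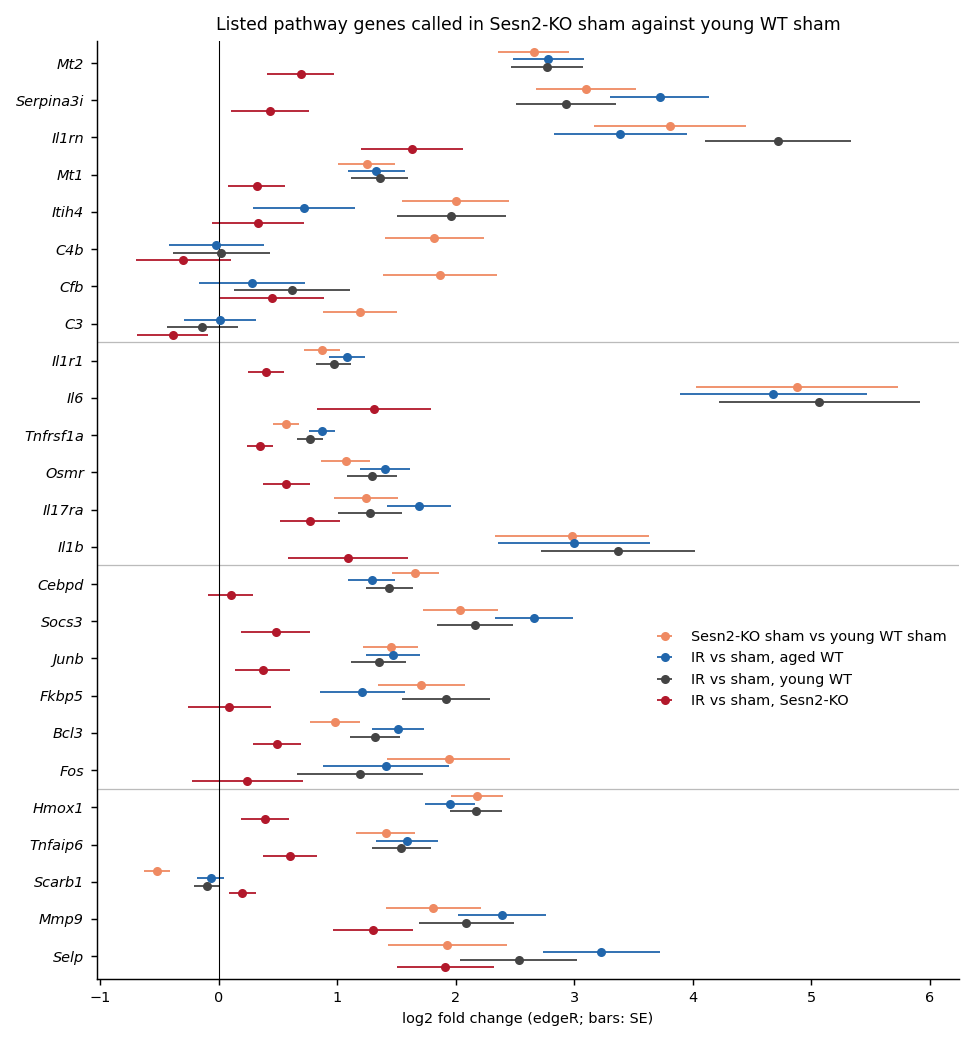
Log2 fold change (edgeR) with its SE for the 25 listed genes called in Sesn2-KO sham against young WT sham hearts, grouped by list, beside IR against sham in aged WT, young WT and Sesn2-KO hearts. Fitted values of Il6 rest on 2 or 3 counts in the WT sham groups. C4b, Cfb and C3 are high in the first comparison and between -0.14 and 0.62 for IR in WT hearts.

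Marker sums of several cell types differed between groups, some higher and some lower in Sesn2-KO sham than in young WT sham hearts. Fewer cells of a type and less RNA per cell cannot be told apart in whole-ventricle RNA. The 11 neutrophil markers found in the files summed to 93.1 to 176 CPM in Sesn2-KO IR, 39.1 to 91.2 CPM in Sesn2-KO sham, 96.3 to 178 CPM in aged WT IR, 6.71 to 19.6 CPM in aged WT sham, 65 to 135 CPM in young WT IR and 5.33 to 7.53 CPM in young WT sham hearts. Neutrophil granules also store lipocalin 2. Of the listed markers, the granule genes Ngp and Camp had at most 4 counts in any group, while the sum of the list was higher in Sesn2-KO sham than in both WT sham groups. Among Sesn2-KO sham hearts, replicate 2 had the highest Lcn2 level, 617 CPM, with the lowest neutrophil sum, 39.1 CPM. Replicate 1 had the lowest Lcn2 level, 150 CPM, with the highest sum, 91.2 CPM. Aged WT sham 2, the aged sham library with the most Hp, Lcn2 and Serpina3n, also had the highest neutrophil sum of the WT sham libraries. The part of these cells in the levels of the members was not tested.

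The 10 monocyte and macrophage markers summed to 791 to 846 CPM in Sesn2-KO sham and 424 to 660 CPM in young WT sham hearts. The 8 cardiomyocyte markers summed to 35002 to 39332 CPM in Sesn2-KO sham and 42710 to 47207 CPM in young WT sham hearts. In aged WT IR hearts these 2 sums were 720 to 1144 and 33624 to 36805 CPM, and in young WT IR hearts 591 to 932 and 34692 to 38155 CPM. Mesothelial and epicardial markers summed to 5.73 to 13.5 CPM in Sesn2-KO sham, 14.8 to 41 CPM in aged WT IR, 8.58 to 89 CPM in young WT IR and 19 to 52.5 CPM in young WT sham hearts. Endothelial markers summed to 940 to 1328 CPM in Sesn2-KO sham and 1381 to 1548 CPM in young WT sham hearts, and fibroblast markers to 1999 to 2390 and 1471 to 2038 CPM in the same order. In aged WT IR hearts the endothelial and fibroblast sums were 1057 to 1182 and 1656 to 2358 CPM, and in young WT IR hearts 1172 to 1331 and 1652 to 2998 CPM. Atrial markers summed to 943 to 1795 CPM in Sesn2-KO IR, 269 to 782 CPM in Sesn2-KO sham and 263 to 373 CPM in young WT sham hearts. They summed to 211 to 606 CPM in aged WT IR and 196 to 750 CPM in young WT IR hearts. The list includes Nppa, and how much each of its 8 genes adds to the sum is not given. In young WT IR hearts Sln and Bmp10 had 0 counts, while in Sesn2-KO hearts none of the 8 did. The sum is therefore not read as atrial tissue. Young WT IR 1, which had the highest Lcn2, Saa3, Serpina3n and Serpina3m of its group, had 89 CPM of mesothelial and epicardial markers, against 8.58 and 13.2 CPM in the other young WT IR libraries, and 196 CPM of atrial markers, against 746 and 750 CPM. Without it, the log2 fold change for IR in young WT hearts was 5.24 for Lcn2, 4.74 for Saa3 and 3.72 for Serpina3n. Of the 12 hepatocyte markers, Alb, which encodes albumin, had at most 3 counts in any group, and Apoc3 and Fgb at most 1. The hepatocyte sum of 16.7 to 30.9 CPM in Sesn2-KO sham hearts, against 4.84 to 9.10 CPM in young WT sham hearts, was mostly Ahsg, which had 12.4 to 27.6 CPM against 2.52 to 5.49 CPM. The part of these other cell types was not tested either.

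**Figure D4:**
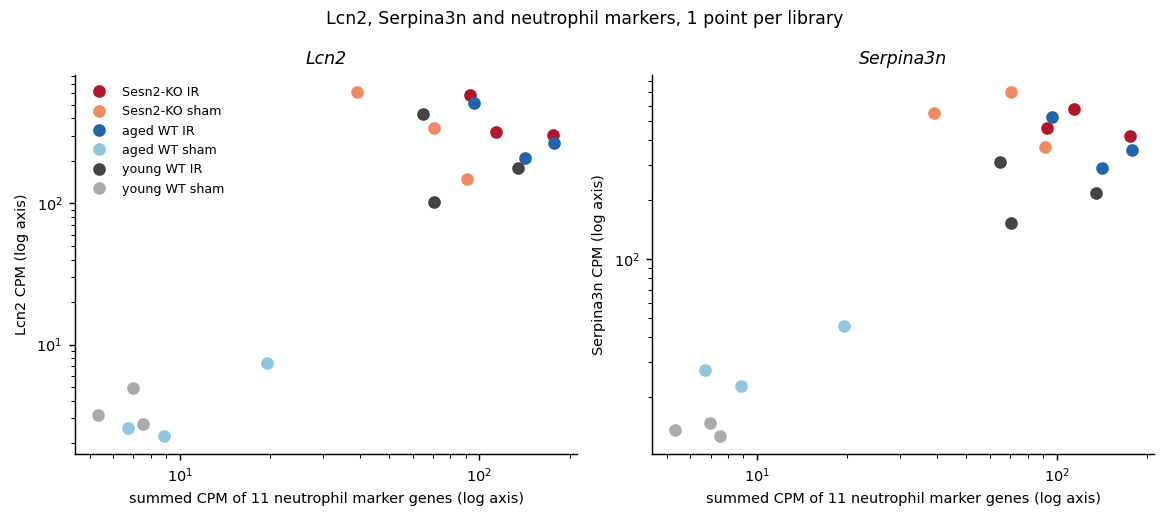
Level of Lcn2 (left) and Serpina3n (right) against the summed CPM of 11 neutrophil markers, 1 point per library, both axes logarithmic. The WT sham libraries sit at the lower left, and among the other 12 libraries the highest Lcn2 level (Sesn2-KO sham 2, 617 CPM) goes with the lowest neutrophil sum (39.1 CPM).

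Likeness between genes was measured as Pearson's r of log2 CPM over the 18 libraries, which share groups and depth. Lcn2 was closest to Saa3 (0.975), Serpina3n (0.973), Mmp3 (0.962), Serpina3i (0.961) and Mt2 (0.960). Saa3 was closest to Lcn2, Cebpd (0.967), Mmp3, Npl and Serpina3n, and Serpina3n to Mmp3 (0.976), Lcn2, Serpina3m, A4galt and Saa3. Ptx3 stood with the chemokine genes Ccl7 (0.981) and Ccl2 (0.973), with Spp1 (0.980), Slc39a1 and Hmox1. Hp stood with Casp4 (0.942), Il33, Icam1, Aebp1 and Serpina3n, and Serpina3m with Serpina3n (0.961), A4galt, Plin2 and Gpx3. Serpina3g was closest to Casp12 (0.837), Serpina3f, Ccl8, C4b and Ifi204. Its r with the other 6 members lay between 0.26 for Ptx3 and 0.64 for Hp. Over the 12 libraries outside the WT sham groups, a choice made after seeing the data, r was lower for most of these pairs. It was 0.64 for Lcn2 with Saa3, 0.75 for Lcn2 with Serpina3n, 0.37 for Lcn2 with Mmp3 and 0.90 for Ptx3 with Ccl7. Pairs with a higher r there included Serpina3m with Serpina3n (0.98) and Serpina3g with Ccl8 (0.86), C4b (0.86) and Ifi204 (0.80). Serpina3g also had a higher r there with Hp (0.94), Serpina3m (0.83), Serpina3n (0.82), Lcn2 (0.54) and Saa3 (0.42). Ptx3 with the other members, Serpina3g included, lay between -0.10 and 0.14.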

How the data were processed

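RNA of 18 left ventricles, 3 in each of 6 groups taken from the sample titles, was read as stranded mRNA libraries, per the labels' protocols. The authors deposited 1 table of whole-number counts per gene for each sample, not normalized. FastQC, Bowtie2, TopHat2, HTSeq, SAMtools and build mm10 are named in the submitters' processing notes, and for none of them do the sources used here give a version, a strand option or an annotation. The 2 summary lines per table, fragments in no gene (6.12% to 9.06%) and in several genes (0.631% to 0.759%), stayed out of library sizes and tests. How reads shared by close relatives such as Saa1 and Saa2 were counted is not given either. Replicates differed beyond counting noise (chi-square per degree of freedom 8.48 to 48.3).

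Tests on the counts used edgeR 4.0.16 under R 4.3.3 (filterByExpr, TMM, robust quasi-likelihood, 1 mean per group over all 18 libraries), as 11 contrasts, with Benjamini-Hochberg adjustment over 13859 genes and calls at an adjusted p below 0.05. The steps were checked on simulated data with the same spread for all genes and with changes in well-counted genes only. That check did not cover members with few counts or the differences of responses. CPM values use the total of gene rows. Shares of distance use log2(CPM + 0.1), and likeness uses log2 CPM with a prior count of 2. A floor is 3 counts over a group, and 95% counting intervals of ratios are exact (Clopper-Pearson). Intervals and floors cover counting error only. Gene exon lengths came from GENCODE M21 on GRCm38.

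The members and lists were chosen with earlier results of these data known. Named genes were all members, Sesn2, up to 4 called genes with the smallest p of each list and comparison, and the 5 genes most like each member. Other genes were named after their values were seen. Some genes that these rules name are not reported here. Alternatives were DESeq2 size factors, library totals without TMM, no filter, the DESeq2 1.42.0 Wald test, the compared groups alone, a replicate block, a pseudocount of 0.5 CPM, leaving out the 6 length-tilted libraries, and leaving out each library. The last was added for the lists and ratios of means after seeing the data. Same-numbered libraries deviated together in all 3 pairs in Sesn2-KO sham against aged WT IR alone (correlations 0.157, 0.373 and 0.549). That pairing comes from the data, not the labels.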

Additional observations from a re-analysis of the deposited data

Results flagged for a closer look

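The difference between Sesn2-KO and young WT hearts in the response to IR had an adjusted p below 0.05 (edgeR) for Hmox1 and for 4 members, each lower in Sesn2-KO hearts on the log2 scale. The members were named from the group levels that make up this difference, and the list holding Hmox1 was chosen with earlier results of these data known, so all 5 values are descriptions. For Serpina3n the response in Sesn2-KO hearts minus that in young WT hearts was -4.26, from -0.21 in Sesn2-KO and 4.04 in young WT hearts. For Lcn2 it was -5.95, from 0.08 in Sesn2-KO and 6.04 in young WT hearts. For Saa3 it was -5.67, from -0.12 in Sesn2-KO and 5.54 in young WT hearts. For Ptx3 it was -3.33, from 1.04 in Sesn2-KO and 4.37 in young WT hearts. For Hmox1 it was -1.78, from 0.39 in Sesn2-KO and 2.17 in young WT hearts. The call of Hmox1 was lost in most fits with 1 library of these groups left out, with the compared groups alone (adjusted p = 0.075) and with the replicate number as a block (0.0532).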

How the results depend on the processing

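Member counts held within 1.5 times under the scaling, filter and replicate block alternatives. Leaving out 1 library at a time, 0 to 3 members were called in Sesn2-KO sham against young WT IR, 1 to 4 in the Sesn2-KO minus young WT difference of responses and 0 to 1 in aged against young WT sham. Without the 6 length-tilted libraries, which leaves 2 per group, 3 members were called for IR in aged WT, 3 for IR in young WT, 2 in Sesn2-KO sham against aged WT sham, 0 in Sesn2-KO sham against young WT IR and 0 in the Sesn2-KO minus young WT difference. DESeq2's Wald test called 3 in Sesn2-KO sham against young WT IR, 1 in Sesn2-KO IR against young WT IR and 2 in aged against young WT sham, and the compared groups alone gave 1 in Sesn2-KO IR against young WT IR. For the lists, without the tilted libraries, the counts for other acute-phase genes, cytokines and receptors, signalling genes, and receptors, ligands and targets were 2, 2, 2 and 2 in Sesn2-KO sham against young WT sham, and 0, 1, 1 and 0 for IR in young WT. For IR in aged WT they were 2 other acute-phase genes, 3 cytokines and receptors and 2 receptors, ligands and targets. The compared groups alone gave 3 other acute-phase genes for IR in young WT. DESeq2's test called 8 signalling genes for IR in aged WT, and 1 other acute-phase gene and 2 receptors, ligands and targets for IR in Sesn2-KO. Leaving out 1 library, Sesn2-KO sham against young WT sham gave 4 to 7 other acute-phase genes, 4 to 6 cytokines and receptors, 3 to 5 signalling genes and 2 to 4 receptors, ligands and targets. The Hp share for young WT IR was 184% with a pseudocount of 0.5 CPM, 191% without the tilted libraries and 166% to 185% with 1 library left out, and for aged WT IR it was 102% without the tilted libraries and 103% to 110% with 1 left out. With 1 left out, the Saa3 share for young WT IR was 100% to 121% and the Serpina3g share for aged WT IR 102% to 152%. With the replicate number as a block, 3 members were called in the Sesn2-KO minus young WT difference, and Hmox1 lost its call there (adjusted p = 0.0532). The pairs held together in 1 comparison only, where the block changed no call. Apart from fewer libraries where they were left out, the cause was not tested. No scaling moved the median of all genes by over 0.1.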
